A study of Rattus norvegicus with 6 samples.

Results

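The chemokine genes Cxcl1, Cxcl2, Cxcl10, Cxcl12, Ccl2, Ccl3, Ccl4, Ccl5, Ccl20 and Cx3cl1 were followed in primary cells cultured from the rat cerebral cortex. They were taken by their gene symbols in the platform annotation, which gave 12 probe sets for these 10 genes, of 31042 probe sets and 14217 gene symbols on the array. Cxcl12 had 3 probe sets and each other gene had 1, and no probe set carried a chemokine symbol together with another gene. In the Math2 group (3 arrays) a dish of cells received 13.3 µg of a vector expressing Math2, and in the control group (3 arrays) it received 13.3 µg of a control vector. The Math2 gene, now called Neurod6, encodes a neuronal transcription factor of the basic helix-loop-helix family. Every dish of both groups also received 2.7 µg of a vector for LNGFR, a receptor cut short inside the cell that serves as a surface tag. Cells carrying the tag were collected with a selection kit after 24 h, so the RNA came from the selected part of each culture. No label gives the rats' strain or age. Nor do the labels state that samples of a group were separate cultures or animals, and the p-values therefore describe the spread among these samples only, which may be technical.

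Chemokines are small secreted proteins that direct the movement of cells through G protein-coupled receptors. Most inflammatory members are transcribed after activation of NF-kB or of interferon signalling, and in brain cultures astrocytes, microglia and meningeal cells are known sources. Cxcl12 and Cx3cl1 are made in the brain without inflammation: Cxcl12 guides migrating neurons and their precursors, and Cx3cl1 is displayed by neurons and read by microglia.

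The array signals were deposited on a linear scale, with medians of 102 to 120 per array. Differences are given as Math2 minus control on the log2(signal + 7.42) scale, on which a change between low signals comes out too small. No detection calls were used, so signals near or below the array medians are uncertain. A probe set was tested if its mean log2 value reached 6.07, and 10 of the 12 chemokine probe sets, for 9 of the 10 genes, did so. The Cxcl2 probe set and 1 of the 3 for Cxcl12 were too dim. The hybridization spike-in controls averaged 4897 ± 1626 on the Math2 arrays and 2312 ± 366 on the control arrays, as geometric mean signals per array (SD, n = 3 each, exact two-sided permutation p = 0.1, the smallest that 3 against 3 arrays allow), without overlap. The part of this difference in the chemokine values was not tested. A second technical measure was the ratio of 3′ to 5′ Gapdh signal. It averaged 7.54 ± 1.35 on the Math2 arrays and 7.53 ± 5.47 on the control arrays (SD, n = 3 each). The groups overlapped (exact two-sided permutation p = 0.9). The ratio was 13.8, 3.74 and 5.04 on control arrays 1, 2 and 3. Of all 6 arrays, control 1 was the highest and control 2 the lowest. The part of this ratio in the chemokine values was not tested either. The probe set of Neurod6, the transfected gene, measured 312, 167 and 1546 in Math2 cells, against 386, 207 and 973 in control cells. Whether it covers the sequence in the vector is not stated, so it is no check of the labels.

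No chemokine probe set passed the test over all 18625 probe sets. In limma without the replicate number as a block, 0 of 10 were called at an adjusted p of 0.05, against 0% of all tested probe sets, and the smallest adjusted p of a chemokine was 1.00. With the number as a block 0 of 10 were called as well, against 0.0161% of all tested probe sets, and the smallest adjusted p was 0.181. Under an unadjusted p of 0.05 lay 4 of 10 without the block, against 3.19% of all tested probe sets, and 6 of 10 with it, against 7.70%. Of the 10, 4 were higher and 6 lower in Math2 cells, with a median log2 difference of -0.12, against -0.031 over all tested probe sets. The median absolute log2 difference was 0.79 for the 10 chemokine probe sets and 0.20 for all tested probe sets. Since these genes were chosen with earlier results of the same arrays known, the counts only describe them.

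**Figure D1:**
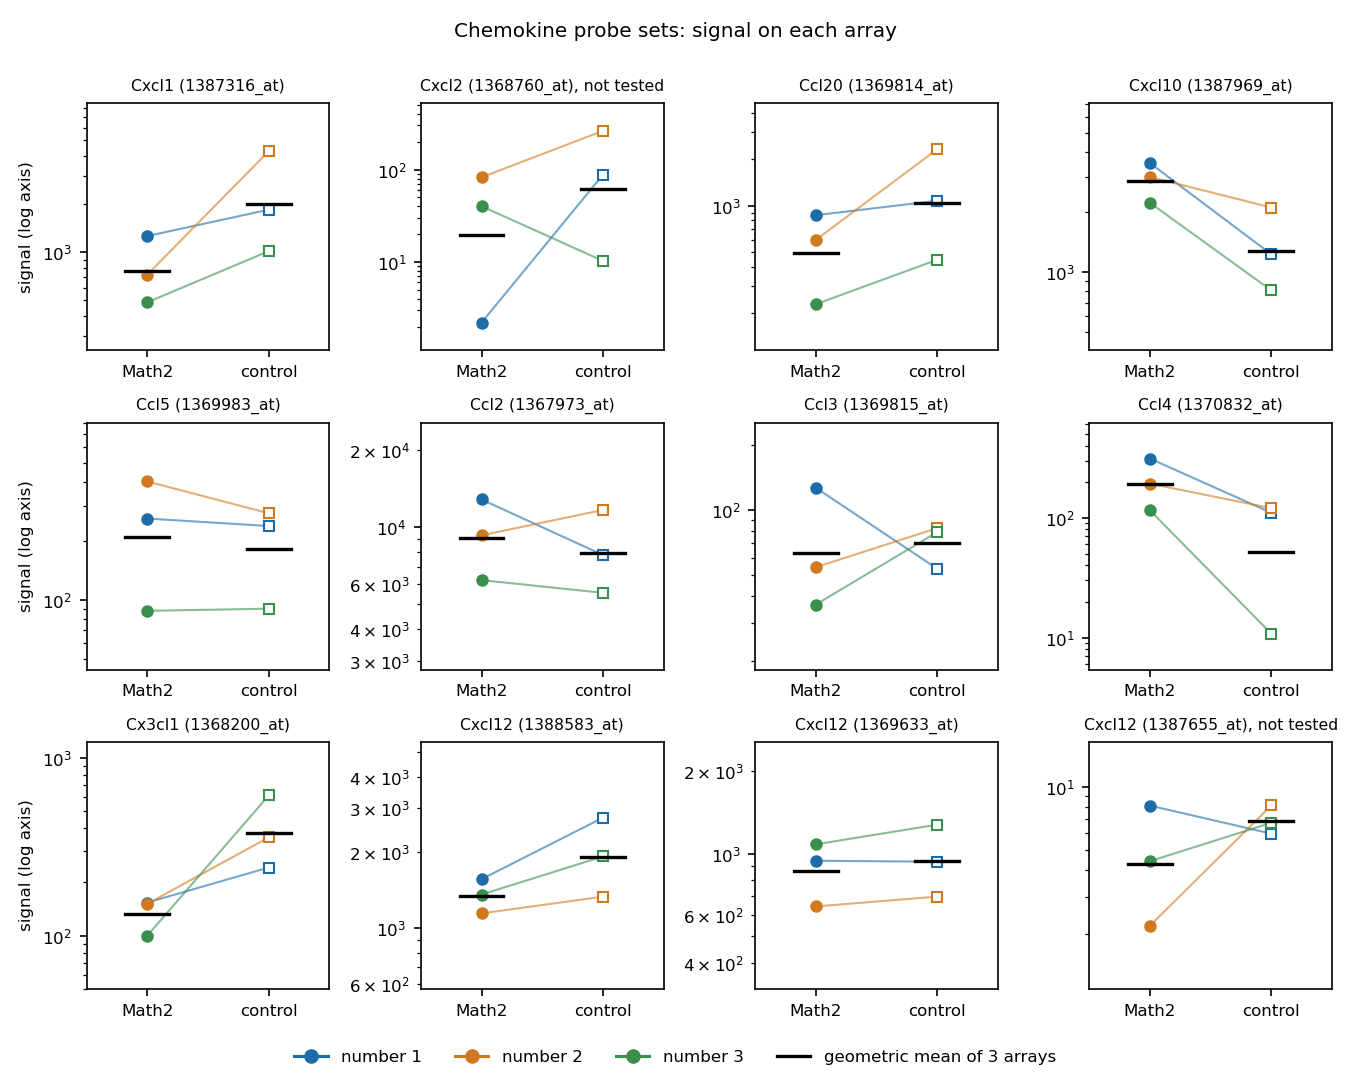
Signal (log axis) of each of the 12 chemokine probe sets on every array, with Math2 arrays as filled circles and control arrays as open squares. Lines join arrays of the same number and bars are geometric means of 3 arrays. Cxcl10 and Cx3cl1 are the 2 tested probe sets in which no Math2 array lies within the control range.

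Cxcl10 (1387969_at) is an interferon-induced chemokine that attracts activated T cells through Cxcr3. Of the 10 genes followed, it was the only 1 with every Math2 array above every control array. Its signal was 3522, 3002 and 2227 in Math2 cells 1, 2 and 3, against 1229, 2110 and 810 in control cells 1, 2 and 3. The lowest Math2 value lay just above the highest control value, which came from control 2. Such a gap upward was present in 3.70% of all tested probe sets. With a difference of at least 2-fold it was present in 0.370%, and Cxcl10 was among these. The log2 difference was 1.16 (SE 0.340, 95% interval 0.40 to 1.91), or 2.23-fold on this scale, and it did not pass in limma (adjusted p = 1.00, or 0.181 with the block). By numbered pair the differences were 1.51, 0.51 and 1.45. The 1997 tested probe sets within 0.5 log2 units of its brightness had a median log2 difference of -0.042. The RNA was pooled from many selected cells, so here and for every gene that follows, fewer cells of a type and less RNA per cell cannot be told apart.

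Cxcl11, a neighbour of Cxcl10 in the genome and another ligand of Cxcr3, overlapped between the groups. It had signals of 423, 256 and 351 in Math2 cells, against 204, 528 and 116 in control cells. Its log2 difference was 0.51 (SE 0.484, adjusted p = 1.00 in limma). It was higher in pairs 1 and 3 and lower in pair 2. Over the 6 arrays, the gene whose pattern lay nearest to that of Cxcl10 was Rsad2, an antiviral enzyme gene induced by interferon, at a root mean square distance of 0.20 log2 units over values centred on their mean. Rsad2 averaged 13890.0 in Math2 cells and 7049 in control cells. Next came the histone gene Hist4h4 at 0.23. Receptor Cxcr3 was not tested because its probe set was too dim.

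Ccl5 (1369983_at), which attracts T cells and monocytes, is often induced together with Cxcl10 but had no such gap here. Its signals were 259, 401 and 87.7 in Math2 cells, against 237, 276 and 89.9 in control cells. The groups overlapped fully, and arrays numbered 3 were low in both. On the log2 scale it differed by 0.21 (SE 0.565, 95% interval -1.04 to 1.46, limma adjusted p = 1.00).

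Cxcl1 (1387316_at), a neutrophil attractant that acts through Cxcr2, was lower in Math2 cells in each numbered pair. Its signals were 1262, 725 and 486 in Math2 cells, against 1845, 4283 and 1015 in control cells. Control 2 stood well above the other arrays, and Math2 1 lay above control 3, so the groups overlapped. The log2 difference was -1.38 (SE 0.494, 95% interval -2.48 to -0.29), and it did not pass in limma (adjusted p = 1.00, or 0.230 with the block). Differences by pair were -0.55, -2.55 and -1.05. Without the pair numbered 2 and with the block, the difference was -0.80.

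Ccl20 (1369814_at), the ligand of Ccr6 and an attractant of dendritic cells and lymphocytes, had the same order of arrays within the control group. Its signals were 865, 597 and 228 in Math2 cells, against 1073, 2322 and 443 in control cells. Again control 2 was highest, each pair was lower with Math2, and the groups overlapped. The log2 difference was -1.06 (SE 0.596, 95% interval -2.38 to 0.25, limma adjusted p = 1.00, or 0.341 with the block), with pair differences of -0.31, -1.95 and -0.94. Without the pair numbered 2 and with the block it was -0.62. Ccl20 was the gene nearest to Cxcl1 in pattern over the 6 arrays, at 0.31 log2 units. Next to Cxcl1 came Aass at 0.33. For Ccl20 the nearest was Cd83, a surface protein of activated antigen-presenting cells, at 0.28, followed by Cxcl1.

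Cxcl2 lies next to Cxcl1 in the genome and is another Cxcr2 ligand. Its probe set, 1368760_at, was not tested, with signals of 2.21, 82.5 and 40.2 in Math2 cells, against 87.8, 262 and 10.3 in control cells. Of the 6 arrays, 5 were below their array median, and control 2 was again the highest. Cxcl2 was lower with Math2 in pairs 1 and 2 and higher in pair 3, and no difference is given for signals this low. Cxcl3, a close relative of Cxcl1 and Cxcl2, had signals of 70.9, 21.9 and 96.0 in Math2 cells, against 49.6, 70.9 and 88.3 in control cells, on its brightest of 5 probe sets. For Cxcl3 the groups overlapped, at a log2 difference of -0.28 (SE 0.508, adjusted p = 1.00 in limma). Probe sequences were not used here, so whether probe sets of these related genes share targets was not tested.

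Promoter sequences from RefSeq (assembly GRCr8) were at hand for 6 of the 10 genes: Cxcl1, Cxcl2, Cxcl10, Cxcl12, Ccl20 and Cx3cl1. Those of Ccl2, Ccl3, Ccl4 and Ccl5 were not used here. The 250 bases before the annotated start are printed for Cxcl1, Ccl20 and Cxcl10 because Cxcl1 and Ccl20 were lower and Cxcl10 higher in every numbered pair, and all 3 hold a match to the NF-kB consensus. The form searched was 3 G, a purine, any base, 3 pyrimidines and 2 C, on either strand. Capitals mark that match and, in Cxcl10 alone, a match to GAAANNGAA near the 5′ end, a core of the interferon-stimulated response element (ISRE). Each is given 5′ to 3′ on the strand of its gene.
Cxcl1, chr14:17479322-17479571, minus strand: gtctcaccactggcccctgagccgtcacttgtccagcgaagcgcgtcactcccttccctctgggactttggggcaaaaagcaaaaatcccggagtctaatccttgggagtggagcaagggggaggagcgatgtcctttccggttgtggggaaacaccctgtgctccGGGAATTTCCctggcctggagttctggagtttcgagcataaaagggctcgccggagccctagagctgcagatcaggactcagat
Ccl20, chr9:91836909-91837158, plus strand: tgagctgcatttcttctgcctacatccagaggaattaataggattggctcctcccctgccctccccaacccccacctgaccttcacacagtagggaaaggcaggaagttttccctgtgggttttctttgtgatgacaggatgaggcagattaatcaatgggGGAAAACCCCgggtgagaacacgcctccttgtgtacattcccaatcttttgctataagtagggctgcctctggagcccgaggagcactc
Cxcl10, chr14:15988816-15989065, plus strand: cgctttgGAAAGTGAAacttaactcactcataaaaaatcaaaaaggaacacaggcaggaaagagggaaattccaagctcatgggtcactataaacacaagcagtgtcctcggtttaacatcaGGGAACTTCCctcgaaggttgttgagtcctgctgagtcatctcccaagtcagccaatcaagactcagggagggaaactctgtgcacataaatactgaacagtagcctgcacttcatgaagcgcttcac
The NF-kB match starts 84 bases before the start of Cxcl1, 89 bases before that of Ccl20 and 128 bases before that of Cxcl10, whose ISRE match starts 243 bases before it. Cxcl2, not printed, holds 2 overlapping NF-kB matches, of which the first starts 74 bases before its start. On both strands, the NF-kB consensus was matched in 4 of the 6 chemokine promoters and in 4.24% of all 33469 promoters of the same length. With any base allowed as the sixth letter, a form tried after the data were seen, the same 4 promoters and 6.33% of all held a match, and Cxcl10 then held 3 matches and Cxcl1 held 2, of which the capitals mark only the 1 of the stricter form in each. The ISRE core was matched in 1 of the 6 and in 8.12% of all. A match describes the letters and is not evidence that a factor bound there in these cells.

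**Figure D2:**
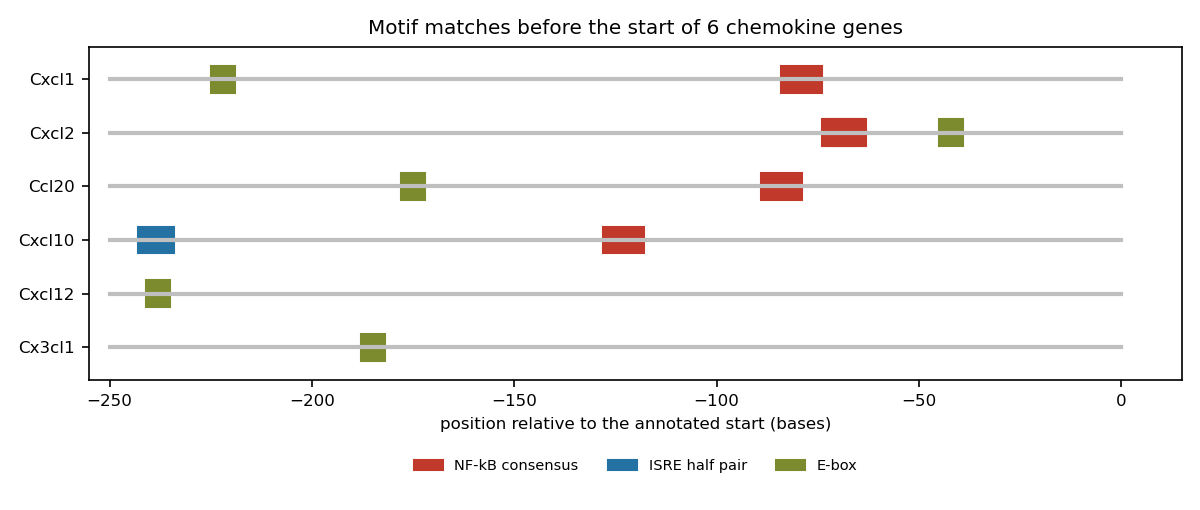
Motif matches in the 250 bases before the annotated start of the 6 chemokine genes with a promoter sequence, with the position relative to the start in bases on the x axis. Coloured boxes are matches on either strand: NF-kB matches lie in Cxcl1, Cxcl2, Ccl20 and Cxcl10, the ISRE match lies in Cxcl10, and 5 of the 6 hold an E-box.

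Cx3cl1 (1368200_at), also called fractalkine, is a chemokine of neurons that is held at the membrane and can be released by the proteases Adam10 and Adam17. Of the 10 genes followed, Cx3cl1 was the only 1 with every Math2 array below every control array. Its signal was 153, 151 and 99.9 in Math2 cells 1, 2 and 3, against 241, 356 and 612 in control cells 1, 2 and 3. The 3 Math2 values lay close together, whereas the control values were spread more widely, with control 3 the highest. A gap of this direction was present in 4.30% of all tested probe sets, and one with at least a 2-fold difference, as here, in 0.328%. Its log2 difference was -1.45 (SE 0.385, 95% interval -2.30 to -0.60), and it did not pass in limma (adjusted p = 1.00, or 0.271 with the block). By pair the differences were -0.63, -1.20 and -2.53, and without the pair numbered 3 and with the block the difference was -0.91. Only the signal of Math2 3 was below its array median.

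Because Cx3cl1 is known as a neuronal gene, the markers of neurons are given beside it. Of the 8 on the array 6 were tested, and 4 of these were higher and 2 lower with Math2, at a median of 0.065 on the log2 scale, which ran from -0.44 without Math2 3 to 0.50 without control 3. The summed signal of the 8 was 5973, 5565 and 16211 in Math2 cells 1, 2 and 3, against 7591, 5280 and 12375 in control cells 1, 2 and 3. Arrays numbered 3 thus had the most neuronal marker signal in both groups, while Cx3cl1 was highest in control 3 and lowest in Math2 3. The part of neuron number in the Cx3cl1 values was not tested. Among the proteases, Adam17 differed by -0.36 on the log2 scale (SE 0.256, adjusted p = 1.00 in limma), and Adam10 was too dim to test. The Cx3cl1 receptor, Cx3cr1, was too dim as well. Nhlrc2 at 0.30 and Mocs1 at 0.34 log2 units were nearest to Cx3cl1 in pattern.

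E-boxes, with the letters CANNTG, are the sites that basic helix-loop-helix factors such as Math2 recognize. The Cx3cl1 promoter is shown because, of the 10 genes followed, this gene was the 1 lower on all Math2 arrays. Its 1 E-box is in capitals.
Cx3cl1, chr19:10242821-10243070, minus strand, 5′ to 3′: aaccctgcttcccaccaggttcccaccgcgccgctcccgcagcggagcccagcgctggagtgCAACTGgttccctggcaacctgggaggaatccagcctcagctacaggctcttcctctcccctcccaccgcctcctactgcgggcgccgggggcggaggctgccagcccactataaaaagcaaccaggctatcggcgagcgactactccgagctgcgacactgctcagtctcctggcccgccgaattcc
That E-box starts 188 bases before the annotated start. E-boxes were found in 5 of the 6 chemokine promoters, all but Cxcl10, and in 65.5% of all promoters of this length. No NF-kB or ISRE match was found in this Cx3cl1 window, which says only that those letters are not in it.

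Ccl4 and Ccl3 are neighbouring genes whose products attract monocytes and T cells, and both are known products of activated microglia. Ccl4 (1370832_at) had signals of 311, 192 and 115 in Math2 cells, against 110, 120 and 10.8 in control cells. Math2 3 lay between the control values, so the groups overlapped, and control 3 stood far below the rest. The log2 difference of 1.61 (SE 0.695, 95% interval 0.076 to 3.15) did not pass in limma (adjusted p = 1.00, or 0.296 with the block). The pairs differed by 1.44, 0.65 and 2.75. Without control 3 the difference was 0.70, so its size rested in part on that 1 dim signal.

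Ccl3 (1369815_at) had signals of 127, 54.4 and 36.6 in Math2 cells, against 53.6, 82.4 and 78.9 in control cells. On 5 of 6 arrays it was below the array median, and Math2 arrays lay on both sides of the control values. Its log2 difference was -0.13 (SE 0.467, 95% interval -1.16 to 0.91, limma adjusted p = 1.00). Of 12 markers of microglia and macrophages, Tmem119 was the only one bright enough to be tested. The other 11, among them Aif1, Itgam, Csf1r, Ptprc and Cx3cr1, were under the filter. Of these, Cd68 and Tyrobp were lower on every Math2 array than on every control array, and the rest overlapped. Cd68 had 5.95, 61.9 and 6.87 in Math2 cells, against 76.2, 71.8 and 71.2 in control cells. Tyrobp had 31.6, 4.10 and 4.46 in Math2 cells, against 34.9, 39.8 and 41.5 in control cells. All signals of Cd68 and Tyrobp were below the array medians and are uncertain. The summed signal of all 12 ran from 583 to 709 on the Math2 arrays and from 631 to 1127 on the control arrays. Tmem119 alone gave 344 to 379 on the Math2 arrays, against 280, 312 and 742 on control arrays 1, 2 and 3. The sum of 1127 was that of control 3. All 6 markers of T and B lymphocytes on the array were also under the filter.

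Ccl2 (1367973_at), which attracts monocytes through Ccr2, was far above the array median on all 6 arrays. It had signals of 12819, 9288 and 6204 in Math2 cells, against 7782, 11662 and 5533 in control cells. The groups overlapped over nearly their whole range. The log2 difference was 0.19 (SE 0.312, 95% interval -0.51 to 0.88, limma adjusted p = 1.00), higher in pairs 1 and 3 and lower in pair 2. The 429 tested probe sets of like brightness had a median difference of 0.17, and with quantile normalization the difference of Ccl2 was -0.066. Ccl7, its neighbour and another ligand of Ccr2, had signals of 474, 432 and 236 in Math2 cells, against 278, 1822 and 243 in control cells. Control 2 alone was high for Ccl7, and its log2 difference was -0.45 (SE 0.654, adjusted p = 1.00 in limma).

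Cxcl12, the ligand of Cxcr4 and Ackr3, was measured by 2 tested probe sets that overlapped between the groups. The probe set 1388583_at had signals of 1566, 1145 and 1360 in Math2 cells, against 2746, 1335 and 1927 in control cells. Each pair was lower with Math2, while Math2 1 and Math2 3 lay above control 2. The log2 difference was -0.51 (SE 0.290, 95% interval -1.15 to 0.13, limma adjusted p = 1.00, or 0.585 with the block). The other, 1369633_at, had signals of 942, 642 and 1080 in Math2 cells, against 934, 697 and 1274 in control cells. Here the pair differences were 0.012, -0.12 and -0.24, and the log2 difference was -0.11 (SE 0.307, 95% interval -0.79 to 0.57, limma adjusted p = 1.00). Both had their lowest value of each group on the arrays numbered 2. The third, 1387655_at, was below the median on all 6 arrays, at 8.12, 2.19 and 4.43 in Math2 cells, against 5.98, 8.14 and 6.74 in control cells. The receptor Cxcr4 measured 2234, 1353 and 1757 in Math2 cells, against 1760, 2077 and 1758 in control cells, which differed by -0.091 on the log2 scale (SE 0.247, adjusted p = 1.00 in limma). The scavenging receptor Ackr3 measured 402, 272 and 256 in Math2 cells, against 254, 277 and 198 in control cells, which differed by 0.33 on the log2 scale (SE 0.311, adjusted p = 1.00 in limma).

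**Figure D3:**
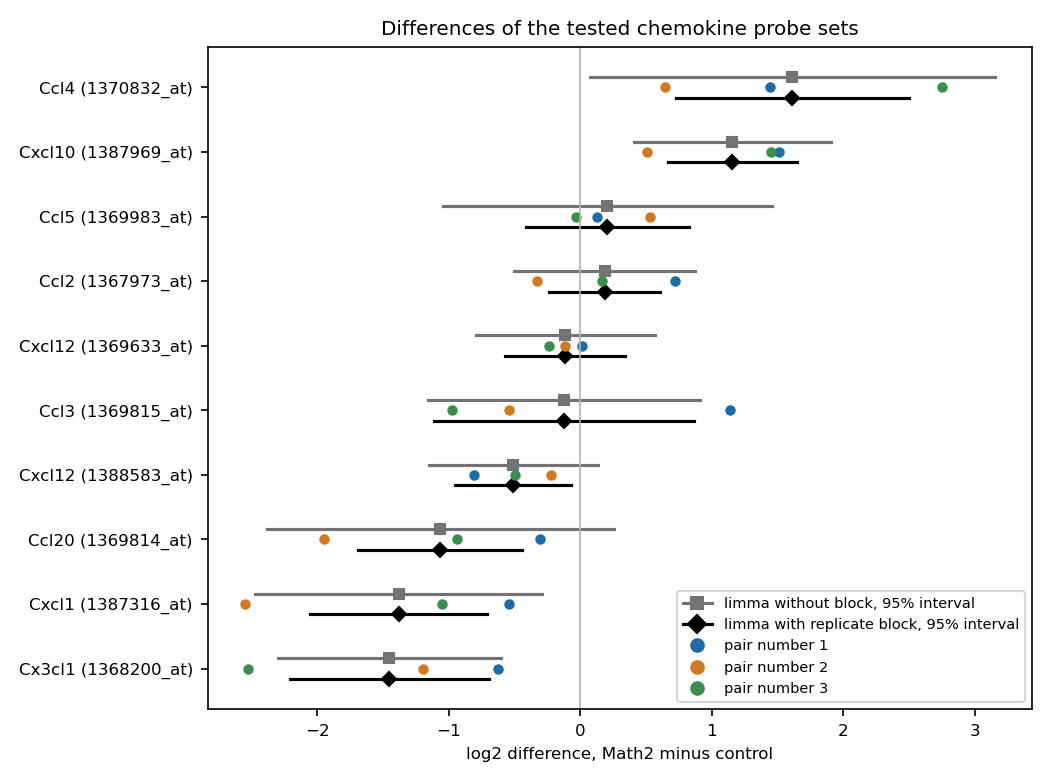
Log2 difference, Math2 minus control, of the 10 tested chemokine probe sets on the x axis, with 95% limma intervals without (grey) and with (black) the replicate block and the 3 numbered pairs as coloured points. Ccl4 and Cxcl10 lie above 0 in all 3 pairs, and Cx3cl1, Cxcl1, Ccl20 and 1 Cxcl12 probe set lie below 0 in all 3.

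Counted by pair, Ccl4 and Cxcl10 were higher with Math2 in 3 of 3 pairs, or 2 of the 10 tested chemokine probe sets, against 13.1% of all tested probe sets. Cx3cl1, Cxcl1, Ccl20 and Cxcl12 (1388583_at) were lower in 3 of 3, or 4 of 10, against 15.2% of all. Without the block, the 95% intervals of Ccl4 and Cxcl10 overlapped each other above 0 and those of Cx3cl1 and Cxcl1 below 0. The intervals of Ccl20, Ccl5, Ccl2, Ccl3 and both tested Cxcl12 probe sets then included 0. With the block, those of Ccl20 (-1.69 to -0.44) and Cxcl12 (1388583_at, -0.95 to -0.067) lay below 0 as well. The intervals are not adjusted for the number of probe sets, and no chemokine passed after adjustment in either fit.

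Within groups, most inflammatory chemokines varied with the array number. Ccl2, Ccl4, Ccl5, Ccl20, Cxcl1 and Cxcl10 each had the lowest signal of the Math2 group on Math2 3 and the lowest of the control group on control 3. These are 6 of the 10 tested chemokine probe sets, and the same held for 14.0% of all tested probe sets. Ccl20 deviated from its group mean by -1.08 log2 units on Math2 3 and by -1.21 on control 3, and Ccl5 by -1.20 and -0.96. For Ccl20 this spread within a group was as large as the difference between the groups. Control 2 was the highest of the 6 arrays for Cxcl1 and Ccl20. By root mean square distance over the 6 arrays, the genes nearest in pattern to the remaining chemokines were Tpm3 (0.45) and Dpm1 (0.51) for Ccl4, Cog5 (0.071) and Slbp (0.086) for Ccl2, and Mrm3 (0.23) and Msx1 (0.26) for Ccl5. For Ccl3 they were Csnk1g3 (0.12) and Fer (0.15), and for Cxcl12 (1388583_at) they were Gk (0.11) and Trmt5 (0.11).

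Cell type markers also varied with these numbers. Summed astrocyte markers, 8 genes, had signals of 35795, 32437 and 20885 on Math2 arrays 1, 2 and 3. On control arrays 1, 2 and 3 the sums were 28739, 30123 and 22493, so arrays numbered 3 had the lowest sum in each group. Slc1a3 and Gja1 made up most of this sum. All 7 tested markers were lowest on Math2 3 within the Math2 group. In the control group Slc1a3, Gja1 and Aqp4 were lowest on control 3, but Gfap, Aldh1l1 and Aldoc on control 1 and S100b on control 2. Of the 7 astrocyte markers tested, 3 were higher and 4 lower with Math2, at a median of -0.013 log2 units (from -0.31 to 0.25 with single arrays left out). Markers of fibroblasts and meningeal cells, 8 genes, summed to 7952, 6276 and 9398 on the Math2 arrays, against 9506, 6762 and 11412 on the control arrays, and all 6 of those tested were lower with Math2, at a median of -0.29 log2 units. The 7 endothelial and mural markers summed to 462 to 527 on the Math2 arrays and to 291 to 384 on the control arrays, and of the 3 tested 2 were higher and 1 lower. None of these markers passed in limma. The part of cell composition in the chemokine values was not tested.

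**Figure D4:**
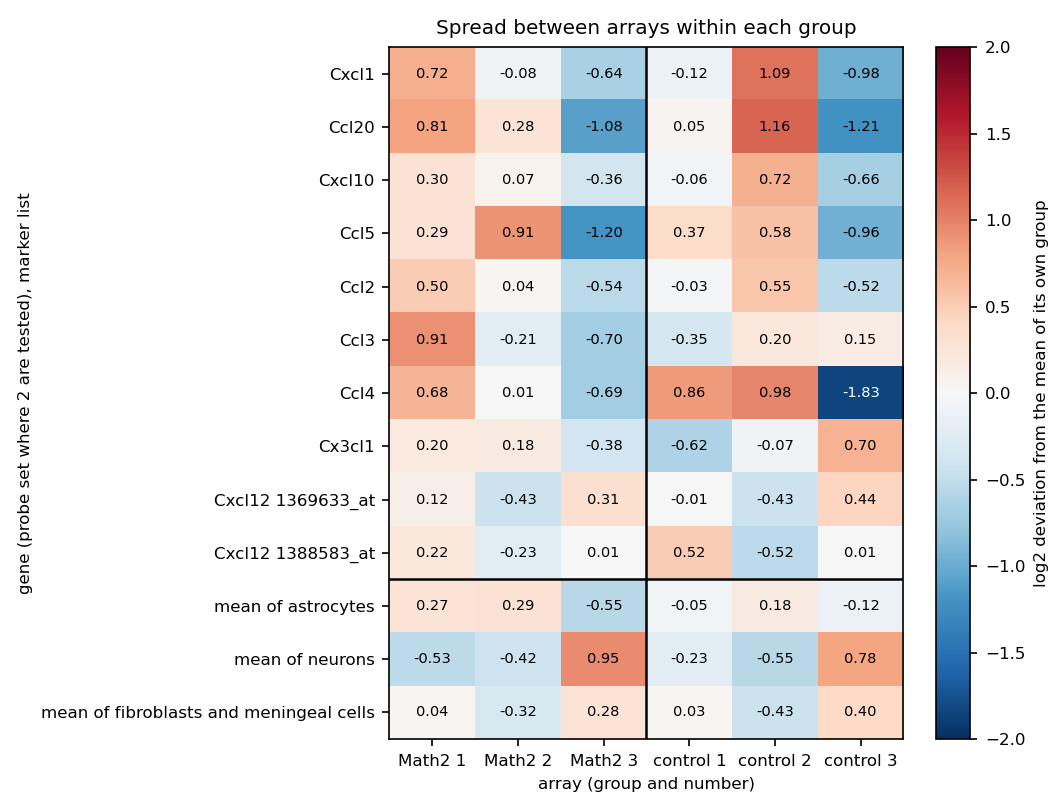
Deviation of each array from the mean of its own group, in log2 units, for the 10 tested chemokine probe sets (rows above the line) and the mean of 3 marker lists (rows below it), with Math2 arrays on the left and control arrays on the right. Arrays numbered 3 are below their group mean for Cxcl1, Ccl20, Cxcl10, Ccl5, Ccl2 and Ccl4 in both groups, and above it for the neuronal markers.

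The genes around the chemokines were described from 5 lists with 98 entries, of which 81 were on the array and 46 bright enough to be tested, each by its brightest probe set. In limma 0 of the 46 were called without and 0 with the block, with smallest adjusted p of 1.00 and 0.206, and 2 and 4 lay under an unadjusted p of 0.05, against 3.19% and 7.70% of all tested probe sets. Without overlap lay 3 of the 46 on the higher side and 2 on the lower side, against 3.70% and 4.30% of all tested probe sets. The median of each of the 5 lists turned sign when some single arrays were left out, and its range is given beside it. Among the other chemokine ligands 7 of 21 were tested, 3 higher and 4 lower, at a median of -0.20 log2 units (-0.32 to 0.26 with single arrays left out). Cxcl16 is a chemokine held at the membrane and the ligand of Cxcr6. It was the 1 tested member of that list without overlap. Its signals were 827, 989 and 1091 in Math2 cells, against 1223, 1514 and 1190 in control cells. Its log2 difference was -0.43 (SE 0.241, adjusted p = 1.00 in limma). Ccl27, known as a chemokine of the skin, had a log2 difference of 0.43.

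Of the chemokine receptors 4 of 17 were tested, 2 higher and 2 lower, with a median of 0.10 (-0.077 to 0.23). Besides Cxcr4 and Ackr3 these were Cxcr5, with a log2 difference of -0.41, and Ackr1, with 0.30. The remaining 13, Cxcr2, Ccr1, Ccr2 and Ccr6 among them, were too dim to test. The Cxcr1, Ccr3, Ccr4, Ccr10, Ackr2, Ackr4 and Ccrl2 probe sets were among them too. Of these dim receptors only Ackr4 had groups without overlap, higher with Math2. It had 79.0, 57.6 and 35.5 in Math2 cells, against 3.99, 18.8 and 12.2 in control cells. Every Ackr4 signal was below its array median and is uncertain.

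Of the NF-kB pathway genes and inducing cytokines 17 of 20 were tested, 6 higher and 11 lower, with a median of -0.074 (-0.34 to 0.084). Tnf on the higher side and Il1r1 on the lower side were the members of this list without overlap. Tnf, a cytokine that induces many chemokines, had signals of 558, 131 and 115 in Math2 cells, against 26.5, 41.8 and 40.6 in control cells. Every control value was below its array median, so the size of its log2 difference of 2.30 (SE 0.558, limma adjusted p = 1.00, or 0.206 with the block) is uncertain. The other Tnf probe set was too dim to test, and its groups overlapped. It had 2.90, 7.67 and 2.78 in Math2 cells, against 3.78, 7.16 and 7.42 in control cells. Il1r1, the signalling receptor for interleukin-1, had 408, 551 and 816 in Math2 cells, against 841, 1271 and 1101 in control cells. No Math2 value reached the lowest control value, and the log2 difference was -0.88 (SE 0.311, limma adjusted p = 1.00, or 0.337 with the block). These values are of the brightest Il1r1 probe set. The other Il1r1 probe sets were too dim to test, and their groups overlapped. Il6 had 0.52 and the adaptor gene Traf6 had -0.48. The cytokine genes Il1a and Il1b were too dim to test.

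Interferon signalling genes, 14 of 16 tested, had 8 higher and 6 lower, at a median of 0.034 log2 units (-0.076 to 0.13). Ifih1, a sensor of double-stranded RNA, had 213, 162 and 218 in Math2 cells, against 161, 133 and 138 in control cells, without overlap. Its log2 difference was 0.43 (SE 0.309, adjusted p = 1.00 in limma). Ifnar2, a subunit of the type I interferon receptor, had 0.45, the transcription factor Irf3 had 0.43 and the kinase Jak1 had -0.33. The interferon genes Ifnb1 and Ifng were too dim to test.

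Among enzymes that process chemokines 4 of 7 were tested, 2 higher and 2 lower, with a median of -0.12 (-0.40 to 0.17). Mmp2, a protease that can cleave Cxcl12, had 1545, 2472 and 1481 in Math2 cells, against 1234, 1317 and 1125 in control cells, without overlap. Its log2 difference was 0.54 (SE 0.260, adjusted p = 1.00 in limma). The other Mmp2 probe set was too dim to test and went the other way, also without overlap. It had 30.4, 34.8 and 13.5 in Math2 cells, against 63.9, 46.8 and 38.7 in control cells. Mmp9 had -0.38 and Mmp14 had 0.12 on its brightest probe set, while the other Mmp14 probe set, also tested, had -0.50.

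**Figure D5:**
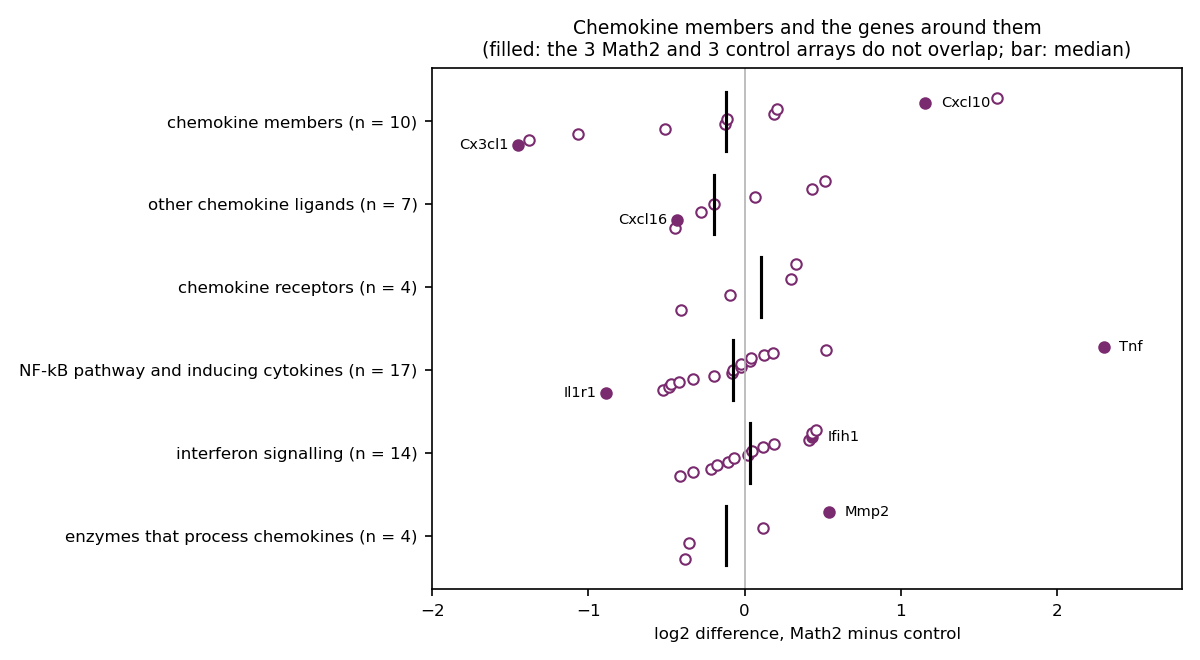
Log2 difference, Math2 minus control, on the x axis for the 10 tested chemokine probe sets and for the tested genes of the 5 lists around them, with a bar at each median. Filled points have no overlap between the 3 Math2 and 3 control arrays: Cxcl10, Tnf, Ifih1 and Mmp2 on the higher side, and Cx3cl1, Cxcl16 and Il1r1 on the lower side.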

How the data were processed

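Per the labels, total RNA of selected cells (50 ng) was labelled in a double amplification and hybridized to 6 Affymetrix Rat Genome 230 2.0 arrays. The deposited values are 1 linear intensity per probe set and array. The submitters' processing notes name MAS5, with version and settings not given in the sources used here. The deposited intensity had a trimmed mean of 500 on every array and was used as scaled. MAS5 subtracts mismatch signal, which makes dim values noisy.

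Signals were transformed to log2(signal + 7.42), the pseudocount being the 10th percentile of positive signals. Probe sets at or above the 40th percentile of mean log2 value (18625 of 31099, with 57 control probe sets left out) entered limma 3.58.1 (R 4.3.3), a linear model with moderated variances that follow intensity. P-values were two-sided and adjusted by the Benjamini-Hochberg method over all tested probe sets. The fit was tested on simulated data. The platform annotation, which can be old, named the genes, and the gene numbers of all 10 chemokines gave the same RefSeq symbols.

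Array numbers were checked for pairing. Deviations from group means correlated at 0.326, 0.476 and 0.372 for Math2 and control arrays of the same number, each above the limit of 0.1 set for pairing. Among arrays of different numbers, Math2 3 and control 1 correlated at 0.104, also above that limit, and the other combinations were negative. Same-numbered arrays were taken as pairs from these values, although no label explains the numbering. The pairing was thus read from the same data that the block fits use. The planned comparison had no block.

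The chemokine genes, the lists and the tests were chosen with earlier results of these data known. Named are all chemokine probe sets, Neurod6, up to 4 genes of lowest p in each list, and the 2 genes nearest in pattern to each chemokine. Genes outside this rule (Cxcl3, Cxcr2, Cxcr3, Cx3cr1 and other dim genes) were named after their values were seen. Promoter motifs were searched on both strands. Alternatives covered the pseudocount, filter, normalization, trend, block and each array left out.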

Additional observations from a re-analysis of the deposited data

How the results depend on the processing

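With the replicate block, 3 probe sets were called higher in Math2 cells and 0 lower, none of them a chemokine, and with the block and quantile normalization 4 and 1. Leaving out single arrays, or numbered pairs with the block, called 0 to 51 higher and 0 to 63 lower over all tested probe sets. Of the chemokines it called 0 to 2 higher and 0 to 1 lower, and of the genes around them 0 to 1 higher. All of these chemokine calls came from the fit with the block and without the pair numbered 2, which has 1 residual degree of freedom: Cxcl10 (adjusted p = 3.28e-04), Ccl4 (adjusted p = 0.0157), Cx3cl1 (adjusted p = 0.0172), and Tnf beside them. That same limma fit called 51 higher and 63 lower of all 18625 tested probe sets, with a smallest adjusted p of 2.13e-16. Over their alternatives (18 for Ccl4, 19 for the others) the adjusted p of Cxcl10, Ccl4 and Cx3cl1 ran up to 1.00. The replicate block changed no other call among the chemokines and the genes around them. Without single arrays, 1 to 2 tested chemokine probe sets lay without overlap on the higher side (2, Cxcl10 and Ccl4, without control 2 or without Math2 3) and 1 to 3 on the lower side (3 without control 3, 2 without control 2 or without Math2 1). With 3 arrays against 2 such gaps are more common, at 6.27% to 10.5% of all tested probe sets on the higher side and 7.11% to 13.1% on the lower side.

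Cxcl10, Ccl20, Cxcl1, Cx3cl1 and 1 Cxcl12 probe set (1388583_at) kept their direction in all 19 alternatives, and Ccl4 in all 18 that tested it. Many of these could not have turned it. A change of filter, trend or block alone leaves the difference as it is. Leaving out a numbered pair cannot turn a probe set whose 3 pairs share a direction, as they do for all of these. Over these alternatives log2 differences ran from 0.83 to 1.52 for Cxcl10, -1.86 to -0.91 for Cx3cl1, -1.87 to -0.80 for Cxcl1, -1.67 to -0.48 for Ccl20, -0.77 to -0.25 for that Cxcl12 probe set and 0.70 to 2.10 for Ccl4. The others turned: Ccl2 ran from -0.082 to 0.46 and was -0.066 with quantile normalization, with and without the block, Ccl3 ran from -0.76 to 0.30, Ccl5 from -0.27 to 0.80 and Cxcl12 (1369633_at) from -0.33 to 0.10. The cause was not tested. Signals near background and 3 arrays per group limit the precision.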
